A study of Mus musculus with 3 samples.

Results

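The 10 genes described here are parts of the circadian clock and its direct outputs: Arntl, Clock, Per2, Per3, Cry1, Cry2, Nr1d1, Nr1d2, Dbp and Tef. They were chosen by name and not by a rule on their values, though with earlier results of these data known. They are 10 of the 37325 genes on the array, read by 27 of its 56605 named probes. Expression was measured with 1 Agilent array for each of 3 cell fractions of epididymal fat from male C57/BL mice aged 20 weeks: stromal vascular cells (SVC), small proliferative adipocytes (SPA) and mature white adipocytes (MWA, MA in the sample labels). All 3 fractions came from collagenase-digested fat. A spin at 9 g for 1 s left SVC in the lower phase, and a second spin of the floating cells, of 3 min at 226 g, parted MWA, which still floated, from SPA, which sank. SVC and SPA were then cultured in DMEM to 90% confluence before RNA was extracted, whereas no culture was described for MWA, and the titles of SVC and SPA carry another date than that of MWA. Culture, date and cell fraction can therefore not be told apart in any comparison with MWA, and neither the hour of harvest nor the number of mice behind each array is given in the sources used here.

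Each group holds 1 array, so no difference below has a replicate check and no test was made. All 10 clock genes were well above background on all 3 arrays, and none of their spots was saturated. A level is the log2 of the processed signal relative to the 75th percentile of the same array, and a ratio is the difference between 2 such levels of the same probe. The error beside a ratio is the spot error that the scanner software gave, which covers the reading of a spot and neither the culture nor the animals. These errors lay between 0.20 and 0.24 on the log2 scale for the 10 genes. Levels of different genes were not compared, because they come from different probes. Because the arrays were made from bulk RNA, fewer cells of a type and less RNA per cell cannot be told apart.

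The mammalian clock is a feedback loop of transcription that runs in nearly every cell, fat cells included. ARNTL (BMAL1) and CLOCK form a dimer that binds E-boxes and drives Per, Cry, Nr1d, Dbp and Tef genes. PER and CRY proteins return to block the dimer, while NR1D1 and NR1D2 (REV-ERB alpha and beta) repress Arntl through ROR elements, so that Arntl and the E-box genes peak at opposite times of day. DBP and TEF are transcription factors that bind D-boxes and carry the rhythm to other genes. In cultured cells each cell keeps its own rhythm and the cells drift apart unless they are reset together.

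The elements by which these genes are known to be connected were looked for in RefSeq promoter windows of the GRCm38.p6 assembly, from 250 bases before to 50 bases after each start. The table held 13 windows of 9 of the 10 genes, and Per2 was not in it. Stretches before the start are shown for the genes in which an E-box (CACGTG), an E-prime-box (CACGTT, or AACGTG when read on the other strand) or a D-box (TTATGTAA or TTACGTAA) was found, because these are the letters that the factors named above are known to read. They read 5′ to 3′ on the strand of the gene, with the motif in capitals.
Cry1, chr10:85185079-85185163, minus strand: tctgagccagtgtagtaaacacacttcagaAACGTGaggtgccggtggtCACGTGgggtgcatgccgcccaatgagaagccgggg
Cry2, chr2:92434200-92434265, minus strand: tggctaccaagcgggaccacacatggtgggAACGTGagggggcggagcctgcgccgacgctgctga
Nr1d1, chr11:98775378-98775435, minus strand: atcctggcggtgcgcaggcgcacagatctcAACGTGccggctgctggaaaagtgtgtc
Per3, chr4:151044786-151044900, minus strand: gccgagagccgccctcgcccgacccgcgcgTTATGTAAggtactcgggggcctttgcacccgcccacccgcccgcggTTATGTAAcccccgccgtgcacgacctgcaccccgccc
Tef, start at the upstream window, chr15:81802516-81802581, plus strand: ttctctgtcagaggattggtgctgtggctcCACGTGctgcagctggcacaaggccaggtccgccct
Tef, start at the downstream window, chr15:81811246-81811311, plus strand: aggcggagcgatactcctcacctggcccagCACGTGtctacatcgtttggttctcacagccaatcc

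Both strands were searched. The E-box lay 60 bases before the start of Cry1, and 127 and 138 bases before the 2 starts of Tef that carried one. The E-prime-box lay 79 bases before the start of Cry1, 166 before that of Cry2 and 28 before that of Nr1d1. Per3 had 2 copies of the D-box, 205 and 158 bases before its start. Arntl had a ROR element core (TAGGTCA or TGGGTCA) 30 bases after its start, and no window of the 9 genes had a CRE (TGACGTCA). Of all 32851 windows of this length, 7.15% held the E-box, 4.68% the E-prime-box, 1.06% the D-box, 6.45% the ROR element core and 1.79% the CRE. These matches describe letters in a window and are not evidence of binding, and no motif of the 5 was found in the windows of Clock, Nr1d2 and Dbp.

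The question asked of the arrays was how the fractions differ, and the study used a 5-fold rule. The clock genes differed little between the 2 cultured fractions. Their log2 ratios of SPA over SVC ran from -0.59 for Per2 to 0.46 for Cry2, with a median of 0.08 against 0.05 over the 20823 genes well above background on both arrays. Of the 10 genes, 5 were higher and 5 lower in SPA, where 56.0% of those 20823 genes were higher. None reached 5-fold or 2-fold, where 0.320% of all genes with a fold were at least 5-fold higher, 0.351% at least 5-fold lower, 3.89% at least 2-fold higher and 3.24% at least 2-fold lower. Per2, 1.50-fold lower in SPA, and Cry2, 1.37-fold higher, differed by more than 2 times their spot error, and the other 8 did not. Neither held throughout, since the log2 ratio of Per2 was -0.30 with normexp, and that of Cry2 was 0.23 with the median over its probes, both within 2 spot errors. The median size of the log2 ratio, taken without its sign, was 0.241 for the clock genes and 0.235 for all genes.

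MWA stood further from SPA in these genes, a comparison that shares the SPA array with the first. Of the 10 genes, 9 were higher in MWA and Arntl alone was lower. Of the 20777 genes well above background on both arrays, 46.2% were higher in MWA. The median log2 ratio (MWA over SPA) was 1.52 for the 10 clock genes, against -0.08 over those 20777 genes. Per2, Dbp and Nr1d1 were at least 5-fold higher, which is 3 of 10 genes beside 5.47% of all genes, and 0 were at least 5-fold lower, beside 3.97%. At a 2-fold limit 7 were higher (Per2, Per3, Cry2, Nr1d1, Nr1d2, Dbp and Tef), beside 15.7% of all genes, and 1 was lower (Arntl), beside 18.0%. With normexp, Per3 (log2 ratio 0.89) and Nr1d2 (0.98) fell short of 2-fold. All 10 differed by more than 2 times their spot error at the probes read. Not all of them held throughout. The log2 ratio of Cry1 was 0.32 with normexp, and that of Clock was 0.03 with the median over its probes, both within 2 spot errors. The median size of the ratio was 2.04 for the clock genes and 0.622 for all genes.

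**Figure D1:**
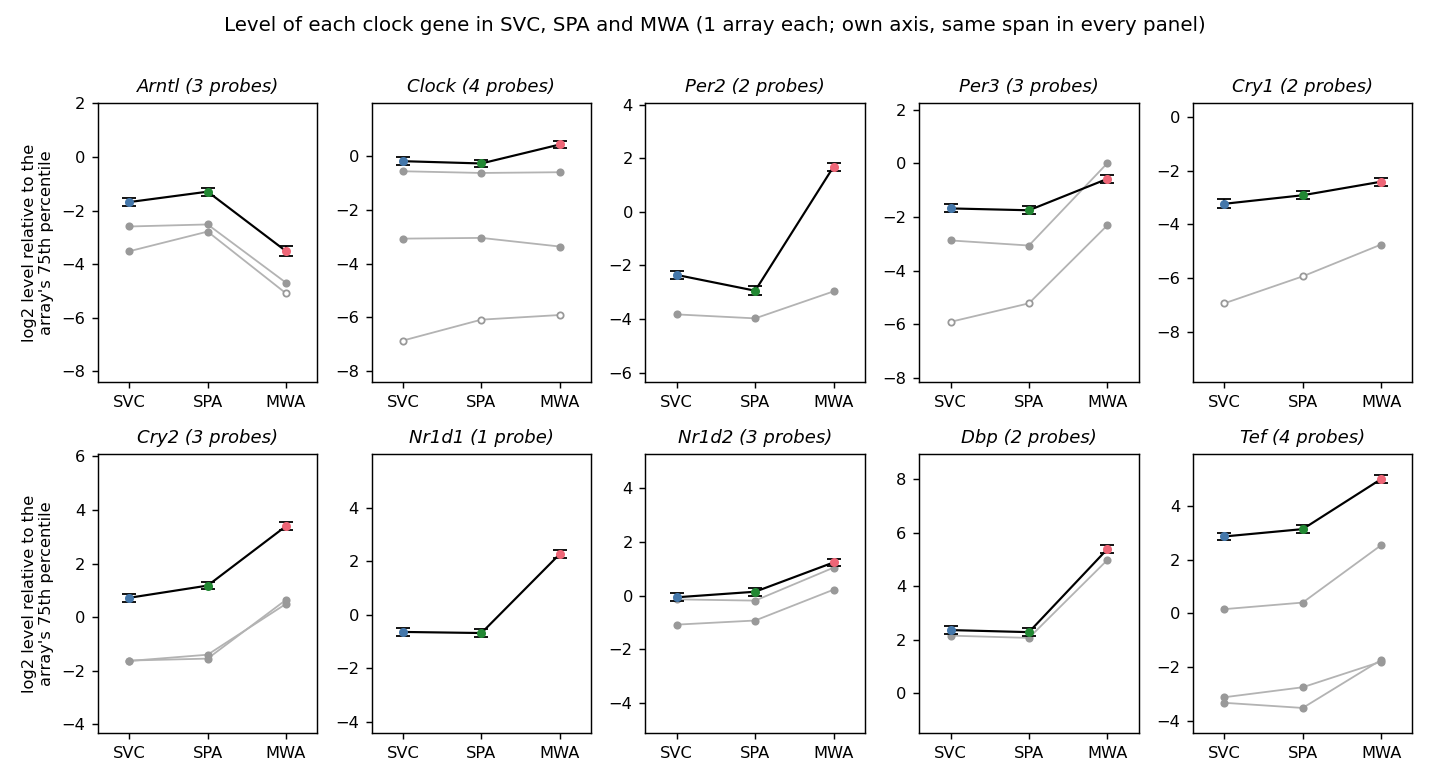
Log2 level of each clock gene relative to the 75th percentile of its array (vertical axis) in SVC, SPA and MWA (1 array each). Coloured points are the probe at which the gene was read, with its spot error as a bar, and grey points are its other probes, hollow where not well above background. Every panel spans the same range of levels, and the levels of different probes cannot be compared. Between SPA and MWA the line rises steeply for Per2, Nr1d1 and Dbp and drops for Arntl, while SVC and SPA lie close together.

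The comparison of MWA with SVC shares its MWA array with the one above, so the values stand side by side and do not count as further evidence. The median log2 ratio of the clock genes was 1.72, against -0.07 over 20174 genes. Again 9 clock genes were higher, beside 47.1% of those 20174 genes, and Arntl was lower. Cry2 joined Per2, Dbp and Nr1d1 at 5-fold, which makes 4 genes higher beside 5.72% of all genes and 0 lower beside 3.96%. The call of Cry2 rests on the probe read, since its other probes were 4.81-fold and 4.38-fold above SVC, and with the median over the probes of a gene Per3 (log2 ratio 2.64) passed 5-fold in its place. The 2-fold limit gave the same 7 higher genes, beside 17.2%, and 1 lower gene, beside 18.0%. With normexp, Per3 (log2 ratio 0.85) and Arntl (-0.81) fell short of 2-fold in this comparison.

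**Figure D2:**
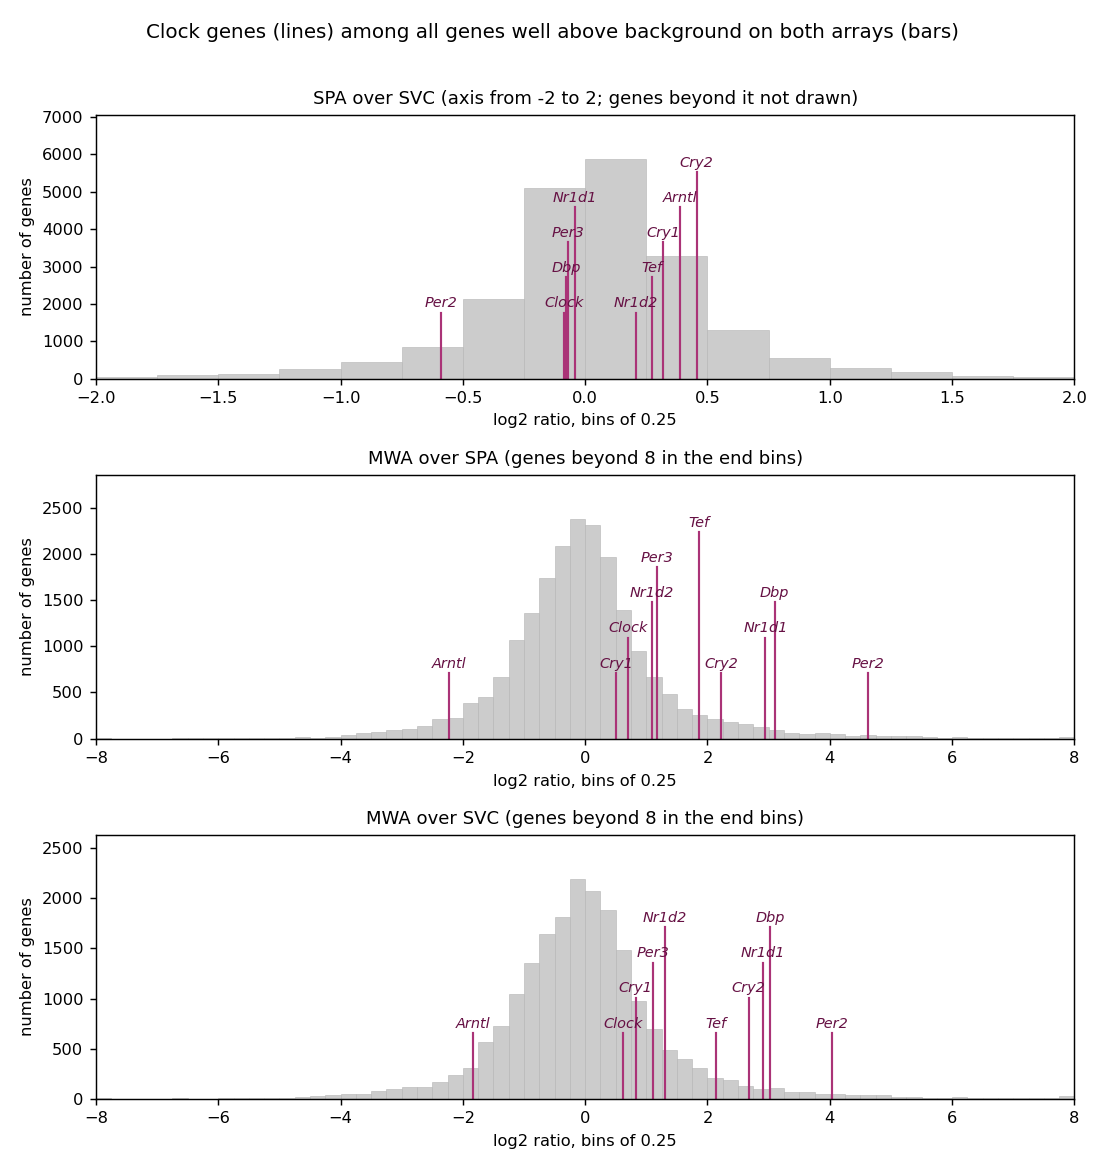
Number of genes (vertical axis) by log2 ratio (horizontal axis, in bins of 0.25) for each pair of arrays, over genes well above background on both, with the 10 clock genes as lines whose height carries no value. The uppermost panel has a narrower axis. The clock genes lie within -0.59 and 0.46 in SPA over SVC, and in MWA over SPA they spread from -2.22 (Arntl) to 4.63 (Per2).

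The activators of the loop differed from each other. Arntl encodes the partner that gives the dimer its rhythm in most tissues, and it was read at chr7:120456978-120457037 (mm9, as the array annotation places its probes). Its level stood at -1.68 in SVC, -1.30 in SPA and -3.51 in MWA, so MWA was the lowest of the 3 arrays. It was 4.65-fold lower in MWA than in SPA (log2 ratio -2.22, spot error 0.235) and 3.56-fold lower than in SVC. Only 4.11% of the genes had a ratio of MWA over SPA as low or lower. The other 2 probes of Arntl were 4.52-fold and at least 4.94-fold lower in MWA. The processed signal of Arntl in MWA was 32.0, close to the dim end of the array, and with another background correction (normexp) the log2 ratio was -1.08. Clock, the other partner of the dimer, had levels of -0.18 in SVC, -0.27 in SPA and 0.44 in MWA at chr5:76639992-76640051. It was 1.63-fold higher in MWA than in SPA there, but its other probes were 1.02-fold higher and 1.25-fold lower, and 1 of the 4 gave no fold. The direction of Clock is thus not settled, and when its probes were summarised by their median, the log2 ratio was 0.03 against SPA and -0.04 against SVC. The log2 ratios of Clock and Arntl (MWA over SPA) differed by 2.93 at the probes read, with a spot error of 0.311. The gap was smaller with the median over probes (0.03 for Clock and -2.22 for Arntl) and with normexp (0.61 and -1.08).

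All 4 repressors of the dimer were higher in MWA at the probes read. Per2, a core component of the repressor complex, had the highest ratio among the 10 genes. Its level stood at -2.36 in SVC, -2.95 in SPA and 1.68 in MWA at chr1:93312595-93312654, and the processed signal was 84.0, 56.9 and 1173. It was 24.7-fold higher in MWA than in SPA (log2 ratio 4.63, spot error 0.215) and 16.4-fold higher than in SVC, and 206 genes, or 0.991% of those measured, had a ratio against SPA at least as high. With normexp the log2 ratio of Per2 was 3.64 against SPA and 3.35 against SVC, so its size depends on the background correction. The second probe of Per2, which lies nearer to the 5′ end of the transcript (position 1001 against 5741), was dimmer and 2.01-fold higher in MWA. Both probes agree in direction but not in size.

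Per3, a further Period gene, had levels of -1.68 in SVC, -1.75 in SPA and -0.58 in MWA at chr4:150385608-150385667, which is 2.25-fold higher in MWA than in SPA. Its other 2 probes were 8.40-fold and at least 7.08-fold higher. The software marked the local background of the read spot as outlying in SVC and SPA, and without such spots Per3 was read at another probe with a log2 ratio of 3.07. The lower ratio of Per3 than of Per2 (a difference of 3.46 with a spot error of 0.298) therefore depends on which probe is read, and with the median over the probes of each gene both ratios were 2.82.

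Cry2, a cryptochrome that represses the dimer, had levels of 0.72 in SVC, 1.18 in SPA and 3.40 in MWA at chr2:92243807-92243866. It was 4.66-fold higher in MWA than in SPA (log2 ratio 2.22, spot error 0.204) and 6.39-fold higher than in SVC. Its other probes were 4.57-fold and 3.73-fold higher than in SPA, so all 3 probes stayed below 5-fold in that comparison. Cry1, the other cryptochrome, was dim, with a processed signal of 45.8 in SVC, 58.3 in SPA and 68.9 in MWA at chr10:84647094-84647153. Its levels were -3.23, -2.91 and -2.41, and it was 1.42-fold higher in MWA than in SPA. The other probe of Cry1 was well above background only in MWA and at least 1.30-fold higher there than in SPA. The ratio of Cry2 exceeded that of Cry1 by 1.71, with a spot error of 0.299.

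The nuclear receptors that repress Arntl were both higher in MWA. Nr1d1 (REV-ERB alpha), which also acts in adipocyte differentiation, was read by a single probe whose ends lie at 98630526 and 98631028 of chr11, so that its 60 bases are split over 503 bases of the genome. Its level stood at -0.64 in SVC, -0.68 in SPA and 2.27 in MWA. Both cultured fractions were alike to within the spot error, and MWA was 7.72-fold higher than SPA (log2 ratio 2.95, spot error 0.204) and 7.50-fold higher than SVC. Nr1d2 (REV-ERB beta), its close relative, had levels of -0.06, 0.14 and 1.24 at chr14:19036568-19036627. It was 2.13-fold above SPA in MWA, and its other 2 probes gave 2.22-fold and 2.35-fold. The difference between the log2 ratios of Nr1d1 and Nr1d2 was 1.85, with a spot error of 0.289.

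The output factors Dbp and Tef, which belong to the PAR bZIP family, were also higher in MWA. Dbp had levels of 2.37 in SVC, 2.29 in SPA and 5.39 in MWA at chr7:52965265-52965324, with a processed signal of 2218, 2145 and 15288. It was 8.55-fold higher in MWA than in SPA (log2 ratio 3.10, spot error 0.204) and 8.11-fold higher than in SVC. The second probe of Dbp gave 7.49-fold against SPA, and 537 genes, or 2.58% of those measured, had a ratio at least as high. Tef had levels of 2.87 in SVC, 3.15 in SPA and 5.01 in MWA at chr15:81657221-81657280, and it was 3.65-fold higher in MWA than in SPA. Its other 3 probes gave 4.40-fold, 3.46-fold and 1.94-fold. The ratio of Dbp exceeded that of Tef by 1.23, with a spot error of 0.289. Dbp and Arntl, which peak at opposite times in a running clock, lay 5.32 apart in their log2 ratios of MWA over SPA, with a spot error of 0.311. With normexp these ratios were 3.07 for Dbp and -1.08 for Arntl, which is a smaller gap. The hour of harvest is not given, and a part of time of day in the gap was not tested.

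**Figure D3:**
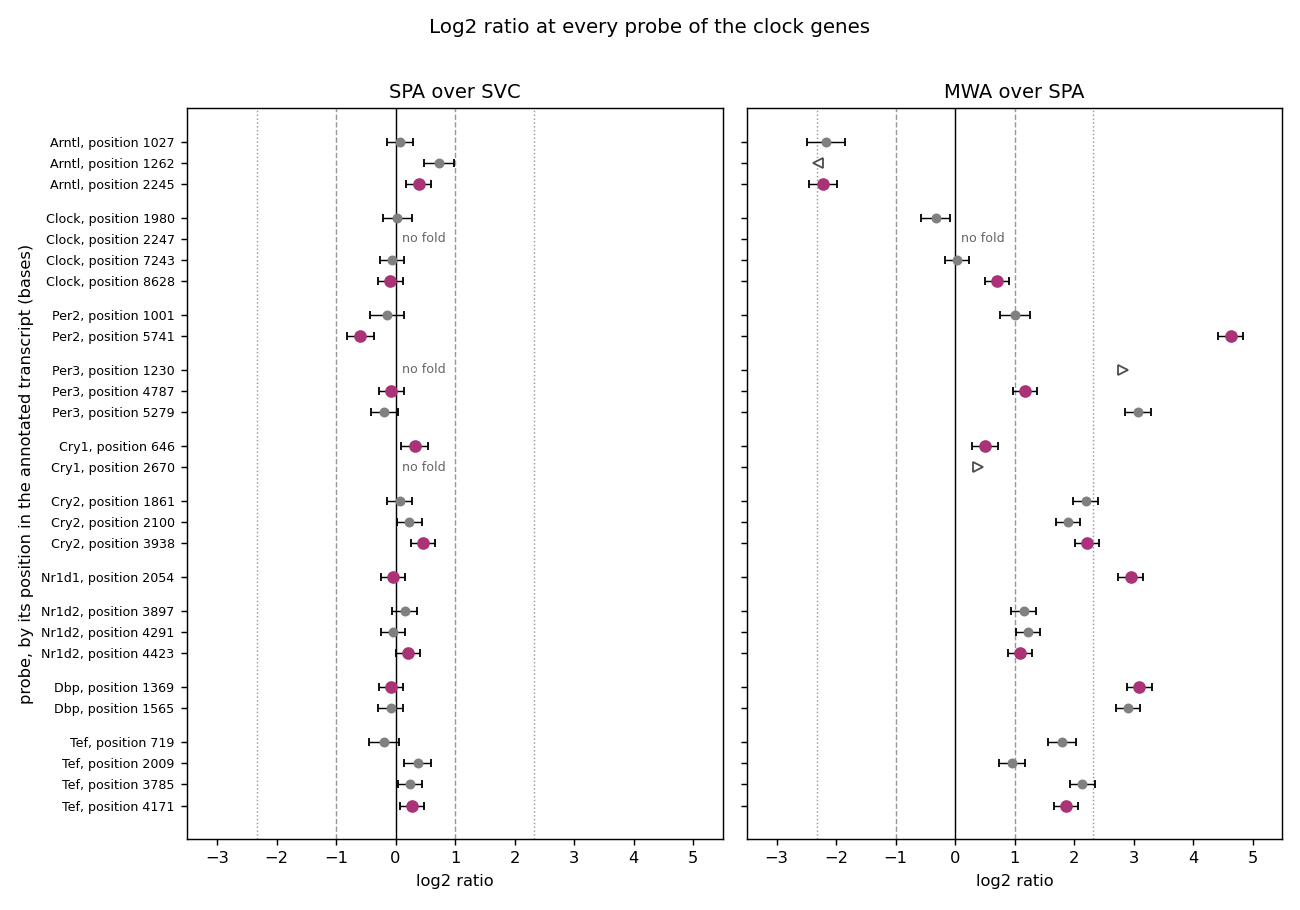
Log2 ratio (horizontal axis) of SPA over SVC and of MWA over SPA at each of the 27 probes (vertical axis, by gene and position in the transcript), with the spot error as a bar. Larger points mark the probe at which a gene was read, open triangles are lower bounds on the size, and dashed and dotted lines stand at 2-fold and 5-fold. All 3 Arntl probes lie on the lower side in MWA, the probes of Per2 and Per3 spread widely, and no probe reaches 2-fold in SPA over SVC.

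Of the 27 probes, 26 gave a fold between MWA and SPA, 22 of them higher and 4 lower in MWA. At least 2-fold higher were 17 probes, at least 2-fold lower were the 3 of Arntl, and 6 were at least 5-fold higher. The shares of all genes given above are for genes at their read probe. No share over all probes was taken, so these counts only describe the 27 probes. Among the 16 probes with a fold at which a gene was not read, 15 had the same sign as the read probe, the exception being a probe of Clock. Probes of a gene share their source and are not replicates. Between SPA and SVC, 24 probes gave a fold, from -0.59 to 0.73 on the log2 scale, 13 higher and 11 lower.

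The rest of the clock machinery was described by 15 further genes. In MWA over SPA, 12 of them had a fold, 5 at least 2-fold higher (beside 15.7% of all genes), 2 at least 2-fold lower (beside 18.0%) and 5 under 2-fold. Those with a fold of at least 5 were 3 higher (beside 5.47%) and 1 lower (beside 3.97%). Per1, the third Period gene, was 7.34-fold higher in MWA. Hlf, the remaining PAR bZIP factor, was 10.2-fold higher, and Nfil3, which binds the same D-boxes as a repressor, was 6.57-fold higher. Rora, a nuclear receptor that activates Arntl, was 2.43-fold higher. Among the E-box repressors, Bhlhe40 (DEC1) was 2.33-fold higher while Bhlhe41 (DEC2) was 5.23-fold lower at its read probe, with a log2 ratio of -1.80 at its other. The processed signal of Bhlhe41 in MWA was 13.8, near the lowest signal well above background on that array (10.3). Arntl2, a paralog of Arntl, was 2.04-fold lower. The kinases Csnk1d and Csnk1e, the ubiquitin ligase subunits Btrc and Fbxw11, and Timeless were under 2-fold at the probes read. The other probe of Timeless had a log2 ratio of -2.37, and the probes of Btrc ran from -0.49 to 0.83. Npas2 (a relative of Clock), Rorb and Fbxl21 gave no fold, with processed signals between 2.42 and 15.2 on the 3 arrays. In SPA over SVC only Bhlhe41 reached 2-fold, 2.11-fold higher in SPA, of 12 genes with a fold and beside 3.89% of all genes. In MWA over SVC 5 were at least 2-fold higher, beside 17.2%, and 2 lower, beside 18.0%.

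Of 7 genes known to follow the clock, 4 exceeded 2-fold in MWA over SPA, beside 15.7% of all genes. They were Pnpla2, the triglyceride lipase of fat cells, at 15.6-fold, Noct (nocturnin) at 8.76-fold, the protease Usp2 at 6.94-fold and Ciart, a repressor of the dimer, at 2.83-fold. Nampt, which makes NAD, was 1.03-fold higher, the cell cycle kinase Wee1 1.15-fold higher and the inhibitor Cdkn1a 1.34-fold lower. The 3 probes of Cdkn1a ran from -2.88 to 0.63 on the log2 scale and the 2 of Wee1 from -0.05 to 0.20. Between SPA and SVC, Pnpla2 was 3.31-fold and Nampt 2.74-fold higher in SPA, beside 3.89% of all genes at least 2-fold higher. The other 5 were under 2-fold at the probes read, though the lowest of the Cdkn1a probes had a log2 ratio of -1.28.

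**Figure D4:**
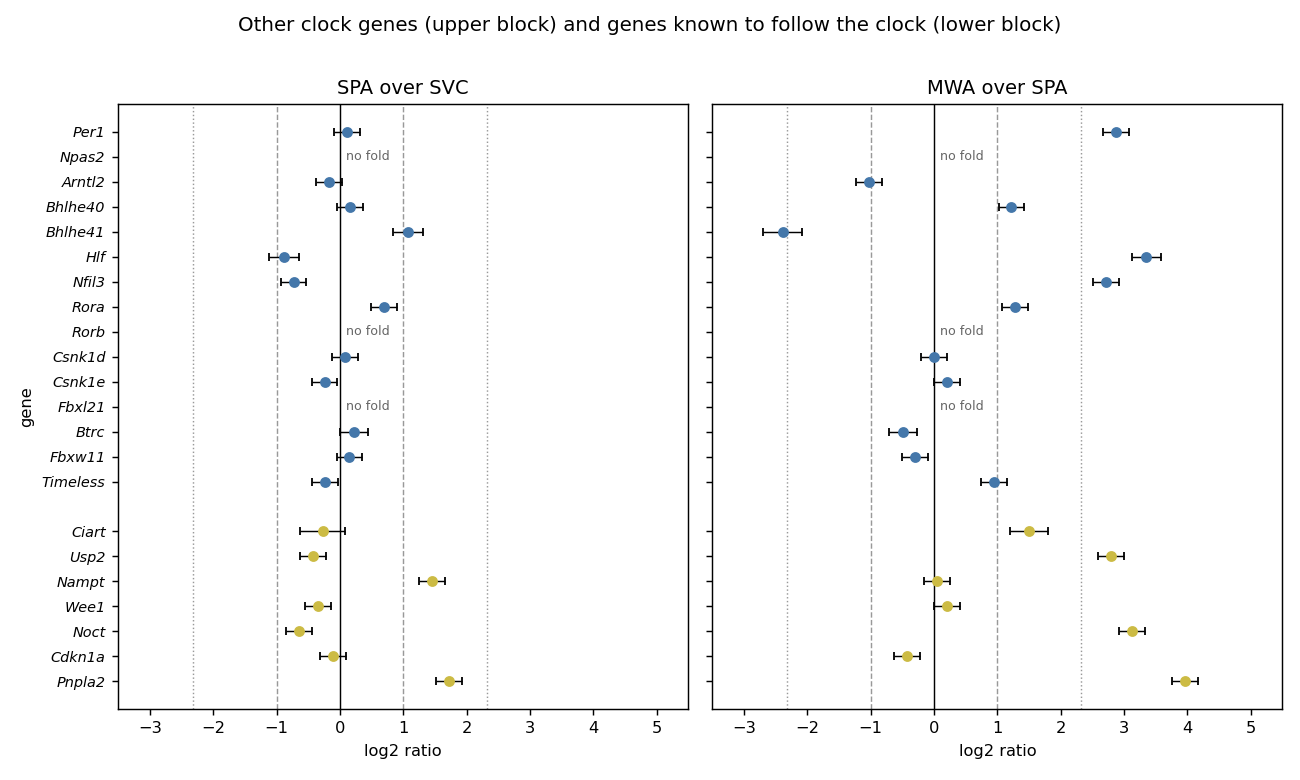
Log2 ratio (horizontal axis) of SPA over SVC and of MWA over SPA for 15 other clock genes and 7 genes known to follow the clock (vertical axis), with the spot error as a bar, and dashed and dotted lines at 2-fold and 5-fold. At the probes read, Per1, Hlf, Nfil3, Usp2, Noct and Pnpla2 lie beyond 5-fold higher in MWA and Bhlhe41, dim in MWA, beyond 5-fold lower.

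By their pair of log2 ratios (SPA over SVC and MWA over SPA) over these 3 arrays, the genes nearest to Per2 among 19970 genes well above background throughout were Aldh1l1, Apcdd1 and Shank3, at distances of 0.027, 0.089 and 0.11. The genes nearest to Arntl were Nmt2, Ahcyl1 and Cndp2, at 0.012, 0.038 and 0.038. With 3 arrays such a match describes 2 ratios.

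Markers of other cell types moved between the fractions as well. The summed scaled level (linear, in units of the 75th percentile) of 8 adipocyte markers stood at 43.3 in SVC, 155 in SPA and 2980 in MWA, with Adipoq and Plin1 not well above background in SVC. In SPA over SVC, 7 of the 8 were at least 2-fold higher, and Lep (leptin) was 1.19-fold higher. That of 4 red cell markers was 0.313, 0.349 and 663, with Hbb-b1 and Alas2 not well above background in SVC and SPA, and that of 4 endothelial markers was 1.03, 1.24 and 19.3. That of 5 macrophage markers was 117, 153 and 64.2, that of 4 smooth muscle markers was 726, 329 and 45.1, that of 4 mesothelial markers was 18.4, 5.55 and 18.9, and that of 6 stromal markers was 71.4, 64.3 and 95.9. MWA thus had the highest summed level for adipocyte, red cell, endothelial, mesothelial and stromal markers, though the mesothelial sums of SVC and MWA were close. Within lists the members differed. In MWA over SVC, 1 of the 6 stromal markers was at least 2-fold higher and 3 were at least 2-fold lower. Of the 4 mesothelial markers, Wt1 was 2.06-fold lower in MWA than in SVC, and the other 3 were under 2-fold higher. Of the stromal markers, Cd34 was 7.66-fold higher in MWA than in SPA while Pdgfra was 4.14-fold and Pdgfrb 2.68-fold lower, and of the macrophage markers, C1qa was 11.3-fold higher while Cd68 was 8.58-fold lower. Among the smooth muscle markers, Myh11 was 2.09-fold higher in MWA than in SPA, while Acta2 was 6.48-fold, Cnn1 2.34-fold and Tagln 8.58-fold lower. The part of these cells in the ratios of the clock genes was not tested.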

How the data were processed

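RNA of SVC, SPA and MWA was hybridized to 1 Agilent 1-colour array of 60-base probes each. The authors deposited, for each spot, the intensity from Agilent Feature Extraction 10.7.3.1 (version from the submitters' processing notes), background-subtracted and detrended, and a table whose values are a ratio of that signal to 1 constant per array. GeneSpring GX and a limit of 5-fold were used in the study. Of 62976 spots, 59305 were not controls, and 58.6% (SVC), 61.4% (SPA) and 61.3% (MWA) of these were well above background. Outlier spots (75, 98 and 129) were left out. The 75th percentile was 430, 439 and 366. Probes spotted 10 times had a median SD of 0.04 to 0.05 (log2), and precision is limited by the number of arrays.

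Signals were divided by that percentile and logged. Where several probes read a gene, that with the highest mean level was taken. Where the dimmer array was not well above background, the fold is a lower bound, against the higher of the signal of the probe and the lowest signal well above background (levels of -4.95, -5.14 and -5.15 on the arrays of SVC, SPA and MWA). The brighter array had to be well above background. No test was possible. The gene lists, the limits of 5-fold and 2-fold and 10 alternatives were chosen with earlier results of these data known. The members are always named, other listed genes where they reached 2-fold or to complete a list, and the 3 genes nearest to the highest and the lowest member. Results for some listed genes are left out of this account. Probe accessions were matched to a GRCm38.p6 gene table for names (32994 probes, 1535 renamed, 21 of the 27 clock probes matched and 0 renamed). The calling of folds was tested on simulated data. R 4.3.3 with limma 3.58.1 made the normexp values, and Python 3.11.15 (numpy 2.4.6, pandas 2.3.3, matplotlib 3.10.9) all others.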

Additional observations from a re-analysis of the deposited data

How the results depend on the processing

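Across 10 alternatives, 76 of 84 counts and medians of the clock genes kept their value within the spot error or 1.5-fold. A 2-fold in place of the 5-fold limit gave 7 higher and 1 lower gene in MWA over SPA, beside 15.7% and 18.0% of all genes. In MWA over SVC it gave 7 and 1, beside 17.2% and 18.0%. With genes summarised by the median over their probes, the median log2 ratio was 2.01 in MWA over SPA and 2.07 in MWA over SVC. Without spots of outlying local background it was 2.04 and 2.41. Taking the probe with the largest ratio gave 4 genes at least 5-fold higher in MWA over SPA and 6 in MWA over SVC. That choice can only keep or raise the count, and no share of all genes was taken under it. Of 240 single-gene values, 218 moved by less than the spot error and 22 by more. The sign changed only for Clock in MWA over SVC, from 0.62 to -0.04 with the median of its probes. Per2 in MWA over SPA ranged from 2.82 (median of its probes) to 4.71, Per3 from 0.89 (normexp) to 3.07 and Arntl from -2.25 to -1.08 (normexp), and causes were not tested. Dim genes such as Arntl in MWA are limited by signal over background, with array medians of 2.27 (SVC), 2.33 (SPA) and 2.20 (MWA). Leaving out an array was not possible with 1 per group. No paired analysis was possible because each group holds 1 array.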
